A study of Mus musculus with 3 samples.

Results

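Genes that tune Notch signalling were examined for peaks of Atoh7 in the mouse retina at embryonic day 14. They are the 3 Fringe genes Mfng, Lfng and Rfng, the adaptor genes Numb and Numbl, the ligand-like gene Dner, the feedback inhibitor gene Nrarp and the ubiquitin ligase gene Mib1, 8 of 21631 protein-coding genes on chromosomes 1 to 19 and X. The genes were listed for their role in Notch signalling, with earlier results of these data known, the Numbl peak among them. A peak was counted for a gene if it shared at least 1 bp with the RefSeq body of the gene or was centred within 100 kb of it, which gave 5 of 3668 peaks. The libraries were CUT&RUN libraries, a method that cuts out the DNA beside a protein with an antibody-guided nuclease. They came from retina of strain C57Bl6/J, 2 with an Atoh7 antibody and 1 with IgG, and no mutant or treatment is in the labels. The values are one list of peak positions and widths on the mm10 build. It holds no peak height and no value per library, so the libraries could not be compared, their depth is unknown, and nothing here was set against IgG.

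Neurogenic progenitors make Atoh7, a factor of the basic helix-loop-helix (bHLH) family that is required for most retinal ganglion cells, and bHLH dimers bind E-boxes, hexamers of the form CANNTG. In Notch signalling, ligands on one cell activate receptors on its neighbour, and the released receptor fragment acts with the DNA-binding protein Rbpj to keep that neighbour a progenitor. Fringe enzymes extend O-linked fucose on the receptor and change which ligands it answers to. Numb and Numbl are endocytic adaptors that limit Notch activity, Mib1 ubiquitinates ligands so that they can signal, and Nrarp is a Notch target that restrains the activated receptor. Dner is a neuronal transmembrane protein with Delta-like repeats that has been proposed as a Notch ligand.

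Peaks overlapped Mfng and Numbl and none of the other 6 genes. Mfng carried a pair of peaks, while Numbl carried a single wide one across its 5′ end. Lfng and Rfng each had 1 peak outside the gene, 24.1 and 40.6 kb away. Numb, Dner, Nrarp and Mib1 had no peak within 100 kb. A peak thus overlapped 2 of 8 genes, against 8.36% of all protein-coding genes, and lay within 100 kb of 4 of 8, against 34.9%. With the peak centre, or at least 50% of the peak, required inside the gene, the count was 1 of 8 genes, that of Mfng, against 7.17% of protein-coding genes. With 8 genes chosen in view of such results and a single list, none of these differences was tested.

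**Figure D1:**
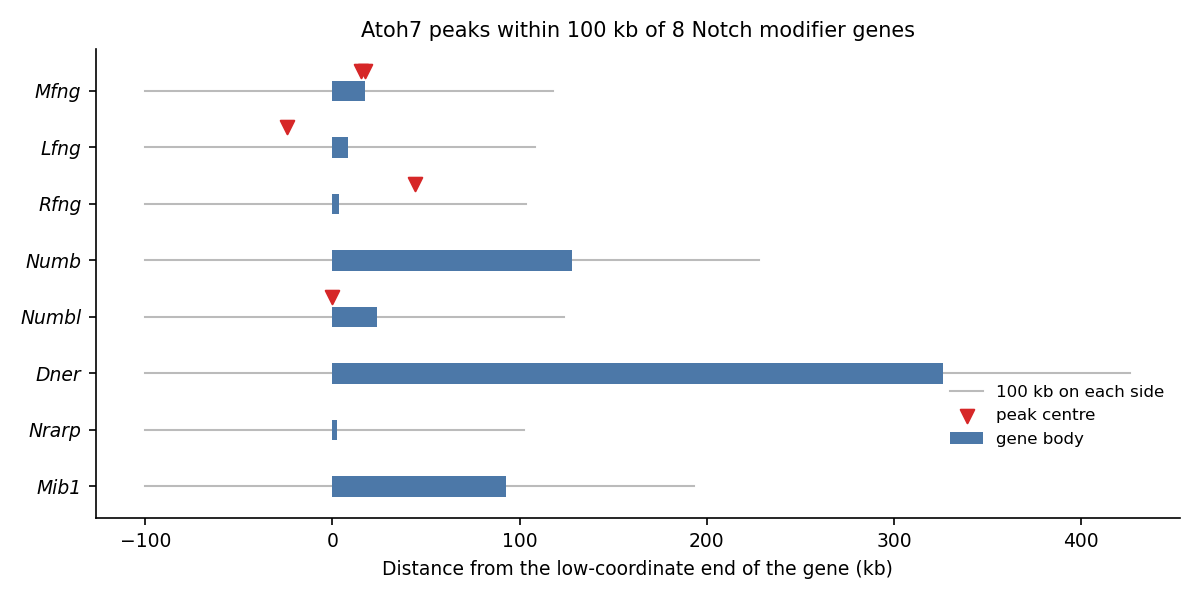
Positions of peaks around the 8 genes. The x axis is the distance in kb from the low-coordinate end of each gene, blue bars are gene bodies, grey lines reach 100 kb to either side and red triangles are peak centres. Mfng has 2 triangles near its high-coordinate end, Numbl has 1 at its low-coordinate end, Lfng and Rfng have 1 each outside the gene, and 4 genes have none.

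The sequences that bear most on these positions are promoter windows, 250 bases before to 50 after a start site, taken from RefSeq (GRCm38.p6, the assembly named mm10) and found for 6 of the 8 genes, in 8 windows. Capitals mark E-boxes. Numbl is shown because it is the one window of the 8 that shares bases with a peak, Lfng because it holds the most E-boxes, and Rfng and Nrarp as further windows with E-boxes and no peak. Numbl (chr7:27258511-27258810, plus strand), Lfng (chr5:140607091-140607390, plus strand), Rfng (chr11:120784155-120784454, minus strand) and Nrarp (chr2:25180508-25180807, plus strand) read, 5′ to 3′:
Numbl: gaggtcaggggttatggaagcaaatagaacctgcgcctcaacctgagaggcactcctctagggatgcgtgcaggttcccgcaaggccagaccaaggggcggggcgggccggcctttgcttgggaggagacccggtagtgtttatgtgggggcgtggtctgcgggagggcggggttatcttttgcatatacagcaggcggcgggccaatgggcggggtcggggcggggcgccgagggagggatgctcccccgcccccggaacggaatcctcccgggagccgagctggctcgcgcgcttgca
Lfng: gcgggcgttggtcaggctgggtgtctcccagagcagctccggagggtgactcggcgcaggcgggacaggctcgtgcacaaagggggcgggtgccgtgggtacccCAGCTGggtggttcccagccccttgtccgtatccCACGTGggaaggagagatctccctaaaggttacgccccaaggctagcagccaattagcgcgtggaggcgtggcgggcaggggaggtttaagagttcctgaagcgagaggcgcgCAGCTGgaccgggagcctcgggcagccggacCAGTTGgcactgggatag
Rfng: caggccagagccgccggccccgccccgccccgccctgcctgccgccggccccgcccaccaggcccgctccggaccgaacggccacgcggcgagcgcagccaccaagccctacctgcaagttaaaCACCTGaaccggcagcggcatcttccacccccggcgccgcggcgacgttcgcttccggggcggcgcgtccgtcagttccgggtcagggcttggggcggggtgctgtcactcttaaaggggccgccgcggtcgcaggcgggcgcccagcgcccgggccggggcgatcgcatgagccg
Nrarp: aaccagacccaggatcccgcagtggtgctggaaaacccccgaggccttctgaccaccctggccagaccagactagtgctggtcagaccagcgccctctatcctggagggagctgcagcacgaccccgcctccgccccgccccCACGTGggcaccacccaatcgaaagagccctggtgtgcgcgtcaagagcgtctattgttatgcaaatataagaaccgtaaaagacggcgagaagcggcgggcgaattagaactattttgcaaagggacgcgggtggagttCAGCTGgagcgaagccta

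The first 235 bases of the Numbl window lie in the peak, and the window holds no E-box. The rest of this peak, which is 1178 bp wide, lies outside the window. No genome sequence was used, so peaks were not searched for E-boxes beyond the windows. The Lfng window holds 4, which are CAGCTG starting 146 bp before the start site and again 1 bp after it, CACGTG starting 112 bp before it, and CAGTTG starting 32 bp after it. Rfng has 1, CACCTG starting 126 bp before its start site, and Nrarp has CACGTG starting 108 bp before its own and CAGCTG starting 32 bp after it. Windows at the 3 listed starts of Numb, at 83842358, 83876812 and 83921934, held 3, 2 and 0 E-boxes. The last of these starts is the one at the 5′ end of the gene, and the other starts lie inside it. The Dner window held 0. In all, 5 of 8 windows held an E-box, beside 69.0% of the 21045 windows of protein-coding genes. These are counts of windows and not of genes, since 3 of the 8 are of Numb and the 21045 belong to 17274 genes. The 7 windows of genes other than Numbl held all 12 E-boxes, and no peak lay over any of those windows. Most windows have no peak: 3.63% of all windows shared a base with one, and 506 of the 14528 windows with an E-box did.

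**Figure D2:**
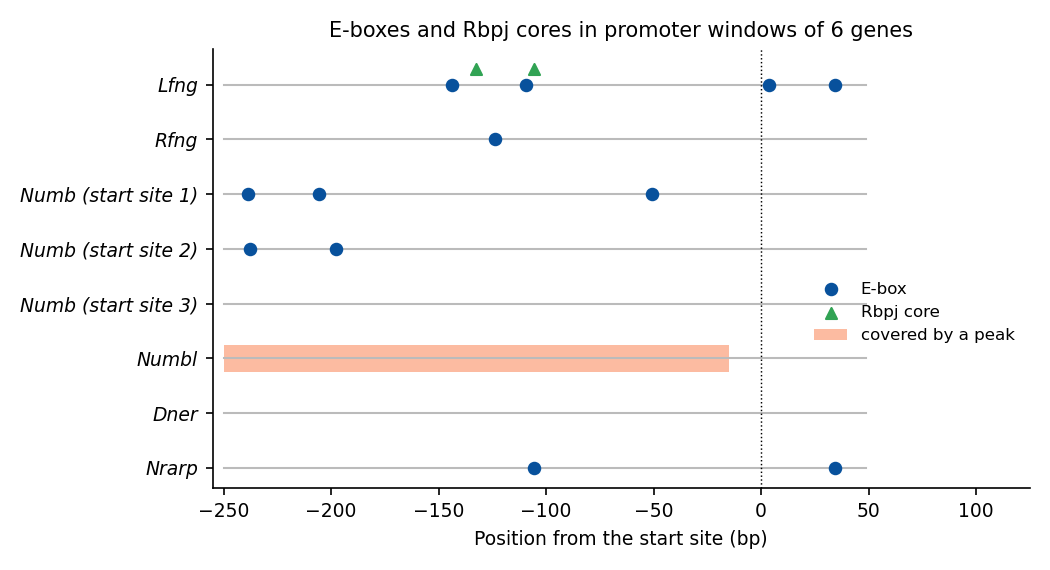
E-boxes (blue circles) and Rbpj cores (green triangles) in the 8 promoter windows of 6 genes. The x axis is the position in bp from the start site (dotted line), grey lines are the windows and the shaded bar is the stretch covered by a peak. Only the Numbl window is covered, from 250 to 16 bp before the start, and it has no symbol, while Lfng has 4 circles and 2 triangles. Bases of the Numbl peak outside the window were not searched.

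An E-box of any kind was in 66.2% of the 764 windows that share a base with a peak and in 69.0% of all windows. By hexamer, counting both strands, CAGCTG was in 27.2% of windows at peaks and in 15.7% of all windows. CAGATG or CATCTG was in 14.0% of windows at peaks and 14.4% of all windows. CAGGTG or CACCTG was in 17.3% of windows at peaks and 19.9% of all windows. CACGTG was in 9.03% of windows at peaks and 7.91% of all windows, and CATATG in 1.18% and 3.04%. Windows at peaks were also richer in G and C, with a median of 63.2%, against 56.7% over all windows, and its part in these shares was not tested. Of the genes studied here, Lfng and Nrarp held CAGCTG, and neither had a peak over its window. This was the usual case, since 208 of the 3305 windows with CAGCTG shared a base with a peak. The core of the Rbpj site, TGGGAA or TTCCCA, was found in 1 of the 8 windows, that of Lfng. It was in 19.4% of windows at peaks and 24.2% of all windows. Lfng is a Notch target in somite formation. Its TTCCCA began 135 bp before the start site and its TGGGAA 108 bp before it, where it overlaps CACGTG by 2 bases. These matches are letters in a window and not measured sites.

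Mfng (gene 17305, chromosome 15, 78755882 to 78773516, 17.6 kb) had the only peaks for which a gene of this group was the nearest protein-coding gene. One peak, at 78770838 to 78771423, was 586 bp wide and lay wholly inside the gene, centred 2.39 kb from its high-coordinate end. The other, at 78773254 to 78773792, was 539 bp wide and crossed that end, with its centre 7 bp outside and 48.8% of its length inside the gene. The strand of Mfng and its exons are not in the table used here, so whether that end is the start, and whether the first peak is exonic, is not stated.

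The Mfng peaks lay 1.83 kb apart. Of 3642 pairs of neighbouring peaks in the list, 135 (3.71%) were as close or closer, and the median gap was 258 kb. Among 4759 other protein-coding genes within 1.5 times the length of Mfng, 282 (5.93%) were overlapped by a peak and 7 (0.147%) by 2 or more. The pair at Mfng depends on counting the peak that crosses its end. With the centre required inside the gene, Mfng had 1 peak, and 213 of these genes (4.48%) had at least 1. Over protein-coding genes of every length, 1.37% were overlapped by 2 or more. Genes like Mfng in length and in number of peaks included Cmtm7, Ddr1, Lzts2, Mapk8ip1, Sh3gl1 and Tef, all with exactly 2. Sh3gl1, an endophilin of endocytosis, and Tef, a transcription factor of the PAR bZIP family, also had a peak across an end of the gene, as Mfng did.

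Lfng (gene 16848, chromosome 5, 140607341 to 140615545, 8.21 kb) had no peak in the gene. Its single peak, at 140583199 to 140583375, was 177 bp wide, the narrowest width in the list, which 71 peaks shared. It was centred 24.1 kb upstream of the start site and lay in intergenic sequence. Grifin, a galectin-related gene of the lens, was nearer, at 15761 bp, and so was the long noncoding RNA gene Gm30603, at 5813 bp. The next peak on the other side of Lfng was 432 kb from it. The share of genes within 1.5 times its length that a peak overlapped was 4.66% (173 of 3715).

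Rfng (gene 19719, chromosome 11, 120780745 to 120784251, 3.51 kb) also had no peak in the gene. The peak counted for it, at 120824627 to 120825133 and 507 bp wide, was centred 40.7 kb upstream of its start site. This peak lay wholly inside Fasn, which encodes fatty acid synthase (chromosome 11, 120805958 to 120825166), and covered 171 of the 300 bases of the Fasn promoter window. Altogether, 4 protein-coding genes were nearer to the peak centre than Rfng, of 8 within 100 kb of it. On the other side the nearest peak to Rfng was 115 kb away. Thus of the Fringe genes Mfng alone had a peak in or across the gene, and the peaks of the other two had closer genes.

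Numbl (gene 18223, chromosome 7, 27258438 to 27282150, 23.7 kb) had the widest peak of the group. At 27257568 to 27258745 it measured 1178 bp and ranked 13 by width among all 3668 peaks, of which 99.6% were narrower. It spanned the whole gap between Coq8b, which encodes a mitochondrial protein of coenzyme Q synthesis, and Numbl. Of its length, 382 bp lay in Coq8b, 488 bp between the genes and 308 bp in Numbl. Its centre was 208 bp from Coq8b and 282 bp from Numbl, so a count by the nearest gene gives it to Coq8b. The RefSeq start site used for the printed window lay 323 bp inside the annotated body, and the peak stopped 16 bp before that site. Peaks that overlap at least 2 protein-coding genes numbered 111 of 3662 (3.03%). Among genes within 1.5 times the length of Numbl, 320 of 4808 (6.66%) were overlapped by a peak.

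**Figure D3:**
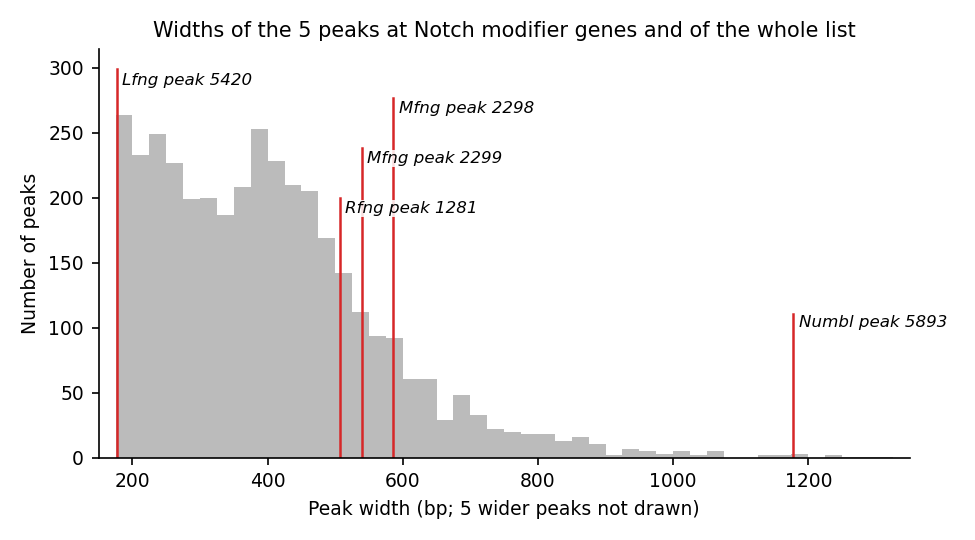
Widths of the 5 peaks (red lines) over the widths of the list (grey bars). The x axis is width in bp and the y axis the number of peaks per 25 bp, and 5 peaks wider than the axis are not drawn. The Numbl peak (1178 bp) is in the far tail, the Mfng and Rfng peaks (507 to 586 bp) are above the upper quartile of 486 bp, and the Lfng peak (177 bp) is at the lowest width.

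Both genes with an overlapping peak had it across an annotated end. This was so for 2 of 8 genes here and for 2.3% of protein-coding genes, and 438 of 3662 peaks crossed such an end. The Numbl peak was known when the 8 genes were listed, and this difference was not tested. Of the 5 peaks, 4 were wider than the upper quartile of the list (486 bp), and the fifth was at its lowest width. The median of the 5 was 539 bp, beside 381 bp for all peaks. Width is not a measure of occupancy.

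Numb (gene 18222, chromosome 12, 83794034 to 83921942, 128 kb), the better-known relative of Numbl, was far from any peak. The nearest was centred 363 kb beyond its high-coordinate end, and the nearest on the other side 1625 kb away. Of protein-coding genes, 37.3% lay farther than Numb from their nearest peak. None of the 3 start sites listed for Numb was near a peak, while 372 of 1878 genes of like length (19.8%) were overlapped by one. The adaptor pair thus differed in this list, with a peak over the 5′ end of Numbl and none within 363 kb of Numb.

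Dner (gene 227325, chromosome 1, 84369839 to 84696221) is the longest gene of the group, at 326 kb, and had no peak inside. Its nearest peaks were 672 kb away on the low-coordinate side and 1024 kb on the high-coordinate side, and 23.0% of protein-coding genes were farther from a peak. Among genes within 1.5 times its length, 222 of 655 (33.9%) were overlapped by a peak, and the other 433 were, like Dner, without one. Nrarp (gene 67122, chromosome 2, 25180758 to 25183339, 2.58 kb) had its nearest peak at 189 kb, with 205 kb to the nearest on the other side. Farther from a peak than Nrarp were 52.2% of protein-coding genes. Of genes of like length, 47 of 1747 (2.69%) were overlapped. For Mib1 (gene 225164, chromosome 18, 10725625 to 10818578, 93.0 kb) the nearest peak was 115 kb away on the low-coordinate side, just past the distance used, and the nearest on the other side was 1310 kb away. Farther from a peak than Mib1 were 62.5% of protein-coding genes. A peak overlapped 388 of 2450 genes of the length of Mib1 (15.8%).

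**Figure D4:**
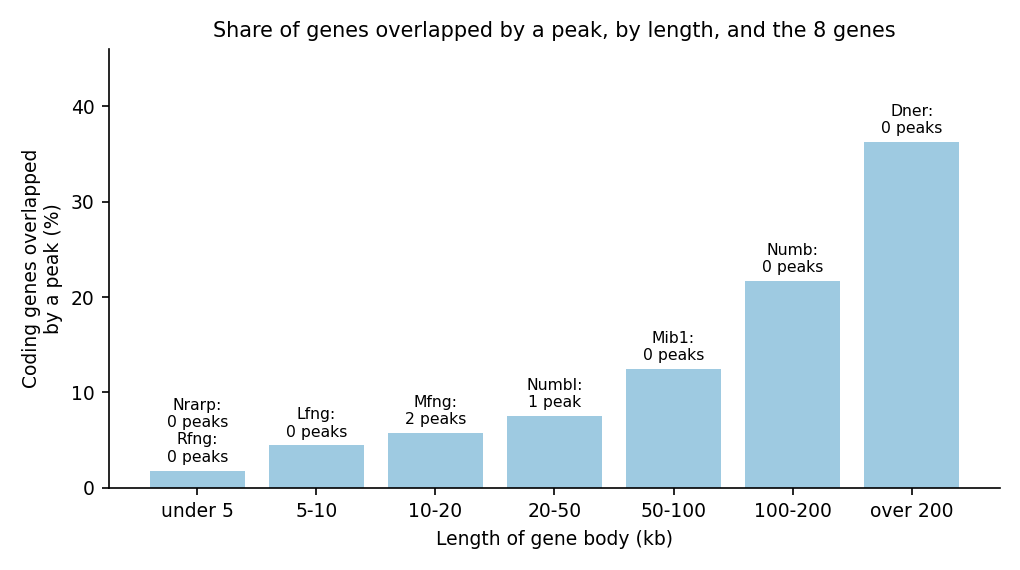
Share of protein-coding genes overlapped by at least 1 peak (y axis, percent) by length of the gene body (x axis, kb), with the 8 genes written over their length class with the number of peaks overlapping each. The share climbs from 1.81% under 5 kb to 36.3% over 200 kb, while Mfng and Numbl fall in classes of 5.77 and 7.57% and the longest genes, Numb and Dner, have 0 peaks.

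Longer genes were overlapped more often, with 1.81% of genes under 5 kb, 5.77% of those of 10 to 20 kb, 7.57% of those of 20 to 50 kb and 36.3% of those over 200 kb. The genes with peaks here, of 17.6 and 23.7 kb, were in the middle of the group, and the 3 longest had none. Counted by the nearest protein-coding gene within 100 kb, Mfng was the only 1 of 8 genes with a peak, beside 11.1% of all protein-coding genes, a share close to the background.

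The rest of the Notch pathway gives a scale for these counts. Of 46 other genes, chosen with results of this list known, 14 (30.4%) were overlapped by a peak, 29 (63.0%) had one within 100 kb and 19 (41.3%) were nearest to one. The shares over all protein-coding genes were 8.36, 34.9 and 11.1%. The median length was 20.7 kb for the 8 genes, 30.5 kb for these 46 and 17.3 kb for all protein-coding genes. None of the 46 had a peak across an annotated end, as Mfng and Numbl did, beside 2.3% of all protein-coding genes. Over all protein-coding genes, 1809 were overlapped by a peak and 497 had one across an end. The difference between the groups was not tested.

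By role, peaks overlapped 3 of 7 ligand genes, these being Dll1, Jag1 and Jag2 with 1 each, and 2 of 4 receptor genes, Notch1 with 3 and Notch2. In the nuclear complex they overlapped Rbpj with 4 and the co-activator gene Maml3 with 5, of 4 genes. Some of these genes are long: Maml3 is 418 kb, Rbpj 102 kb, Notch2 137 kb and Fbxw7, named below, 164 kb. Other genes of this list over 100 kb had no overlapping peak. Among protein-coding genes, 21.7% of those of 100 to 200 kb and 36.3% of those over 200 kb were overlapped, beside 8.36% of all. Of 6 Hes and Hey family genes, grouped as effectors here, peaks overlapped 2, Hes6 and Heyl with 1 each. Whether each of the 6 answers to Notch was not examined. Protease genes were overlapped in 3 of 9, with 1 each in Aph1b, Ncstn and Psen2, which all encode subunits of gamma-secretase. Peaks overlapped 0 of 3 other sugar-adding enzymes, Pofut1, Poglut1 and Eogt. They overlapped 2 of 13 ubiquitin ligases and endocytic regulators, Epn2, an epsin of endocytosis, and Fbxw7, which targets the receptor fragment for degradation. Mib2, the relative of Mib1, had its nearest peak at 58.9 kb. Pofut1, which adds the fucose that Fringe enzymes extend, had its nearest at 169 kb.

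**Figure D5:**
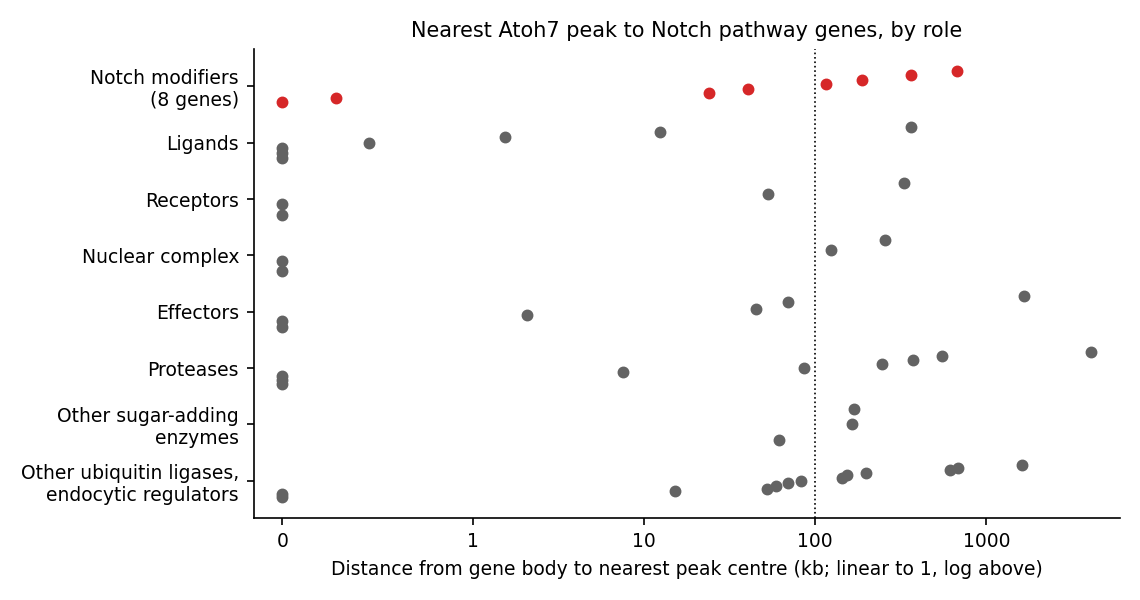
Distance from each gene body to the nearest peak centre (x axis, kb, linear to 1 and logarithmic above) for the 8 genes (red, top row) and 46 other Notch pathway genes by role (grey). Each point is a gene, points are spread vertically for sight, a distance of 0 means a centre inside the gene and the dotted line is at 100 kb. Mfng is the only 1 of 8 red points at 0, and 4 lie past the dotted line.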

How the data were processed

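CUT&RUN libraries of retina were labelled Atoh7 (2) or IgG (1). The labels do not say whether they came from separate animals. The submitters' processing notes name the build mm10, the aligner Bowtie2 2.3.5, the peak caller MACS2 2.2.7.1, Picard 2.0.1, SAMtools and bedtools, without parameters. The deposited table gives position, width and name of each peak, per the file headers, counted from 1. Every name begins with Atoh7_R1. How these peaks were chosen, and whether replicate 2 or IgG took part, is not stated in the labels or the file.

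RefSeq gene bodies (GRCm38.p6) were used, without strand or exons, in which all 8 genes were found. Strand came from the promoter table where a gene is listed there. Backgrounds are shares of 21631 protein-coding genes on chromosomes 1 to 19 and X. A peak tied between overlapping genes went to the one listed first. E-boxes were searched on both strands with overlaps allowed. Members and gene lists were chosen with earlier results of these data known. The named genes were the 8, genes at their peaks, genes like Mfng in length and peak number, and 12 pathway genes with the most overlapping peaks. Ties went by alphabet, and one gene like Mfng is not reported here. Notch2, Psen2, Mib2, Pofut1, Poglut1 and Eogt were named after their values were seen. No test was run, because one list without values per library allows none over samples. The counting was tested on simulated data. Alternatives were distances of 10 and 50 kb, stricter overlap, the wider peaks, genes of any kind and E-box classes. Versions were pandas 2.3.3, numpy 2.4.6, matplotlib 3.10.9 and Python 3.11.15.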

Additional observations from a re-analysis of the deposited data

How the results depend on the processing

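Of 21 alternative values, 13 stayed within 1.5 times the reported count or, for width, within 1 SD of the 5 widths, and 8 moved further. With at least 50% of the peak, or its centre, required inside the gene, 1 member was overlapped in place of 2, since the Numbl peak is mostly outside Numbl, and Mfng kept 1 of its 2 peaks. Within 10 kb, 2 members and 3 peaks remained, and 18 other pathway genes had a peak in place of 29. With peaks at least as wide as the median, 6 other pathway genes were overlapped in place of 14, and 17 had a peak within 100 kb in place of 29. Limiting E-boxes to the classes CAGCTG and CAGATG together with CAGGTG left 6 in place of 12. Leaving out a replicate was not run, because the list has no value per library. No paired analysis was possible because the result comes from no test. Depth and peak height are unknown, so weak binding at genes without a peak cannot be told from none.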

Other observations

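The numbers in the peak names run along the genome to 7185, and 51.1% of them are present in the list. What the absent numbers stood for is not stated in the file. Between the Numbl peak, number 5893, and the next listed peak, 191 kb beyond the far end of Numbl, no number was absent. At Mfng the numbers of both peaks, 2298 and 2299, were consecutive, and 4 numbers were absent between the first of them and the preceding listed peak, 914 kb before the gene. Between the peaks that flank each gene with none within 100 kb, 4 numbers were absent around Numb over 2116 kb, 3 around Dner over 2023 kb, 2 around Nrarp over 397 kb and 1 around Mib1 over 1518 kb. Lfng and Rfng, with a peak nearby but none in the gene, had 3 numbers absent over 464 kb and 1 over 159 kb. Whether any of the absent numbers belonged to an interval at these genes was not tested.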
